A study of Mus musculus with 24 samples.

Results

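A set of 10 genes that mark macrophages was followed in cultured organs of Corti (OCs), the sensory strips of the cochlea, by bulk RNA sequencing. They were Csf1r, Cd68, Adgre1, Aif1, Itgam, Mrc1, Lyz2, Ptprc, Tyrobp and Fcer1g, chosen by name and found through their Entrez identifiers, so that the 10 rows made up 10 of the 24454 genes of the count table. All 10 were among the 16317 genes with enough reads to be tested. The OCs came from postnatal day 5 C57BL/6N mice of both sexes, and were kept in medium before treatment. Treatment lasted 6 or 24 h. One arm stayed in medium alone (CTRL), GM received gentamicin at 50 μM, an antibiotic toxic to hair cells, PIO received pioglitazone at 10 μM, which activates the receptor PPAR-γ, and PIO+GM received these drugs together. Each of the 8 groups held 3 libraries, 24 in all, and each library was made from 6 pooled OCs. The sources do not say whether the libraries of a group came from separate litters, so p-values describe the spread between these libraries.

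Macrophages are the resident phagocytes of the cochlea. They survive through CSF1R, a receptor tyrosine kinase for the cytokines CSF1 and IL-34, and many of their surface receptors signal through the adaptors TYROBP (DAP12) and FCER1G, which recruit the kinase SYK. ITGAM (CD11b) pairs with ITGB2 to form complement receptor 3, ADGRE1 (F4/80) is an adhesion receptor, MRC1 (CD206) is the mannose receptor, PTPRC (CD45) is a tyrosine phosphatase of all leukocytes, CD68 is a lysosomal glycoprotein, AIF1 (IBA1) binds actin and calcium, and Lyz2 encodes secreted lysozyme. In bulk RNA, a lower level can come from fewer cells of a type or from less RNA per cell, and these cannot be told apart.

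Upstream sequences are shown for 3 of the members described below, Lyz2 and Cd68, which rose with time, and Itgam, the member called with pioglitazone. They are the 250 bases before the RefSeq transcript start on build GRCm38.p6, written 5′ to 3′ on the strand of the gene, with GAGGAA, the core of sites for the macrophage factor PU.1, in capitals on either strand (TTCCTC on the other). The window of Lyz2 lies at chr10:117282273-117282522 (minus strand), that of Cd68 at chr11:69666171-69666420 (minus strand) and that of Itgam at chr7:128062390-128062639 (plus strand).
Lyz2: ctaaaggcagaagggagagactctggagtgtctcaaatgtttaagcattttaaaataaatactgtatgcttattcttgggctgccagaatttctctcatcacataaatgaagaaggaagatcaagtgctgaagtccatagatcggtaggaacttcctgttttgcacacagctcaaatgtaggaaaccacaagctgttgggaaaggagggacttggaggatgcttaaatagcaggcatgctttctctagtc
Cd68: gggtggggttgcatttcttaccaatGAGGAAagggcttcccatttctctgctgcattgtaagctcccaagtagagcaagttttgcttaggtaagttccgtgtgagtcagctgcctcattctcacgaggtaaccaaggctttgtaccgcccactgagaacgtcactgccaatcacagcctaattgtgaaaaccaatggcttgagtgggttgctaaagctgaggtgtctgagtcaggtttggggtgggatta
Itgam: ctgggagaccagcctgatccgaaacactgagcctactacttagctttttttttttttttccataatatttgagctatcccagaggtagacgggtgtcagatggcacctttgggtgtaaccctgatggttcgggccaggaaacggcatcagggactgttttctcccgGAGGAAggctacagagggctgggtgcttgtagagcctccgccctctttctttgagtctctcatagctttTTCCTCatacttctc
The genes themselves lie at chr10:117277541-117282272 (Lyz2), chr17:35170986-35176083 (Aif1), chr11:69664213-69666170 (Cd68) and chr7:128062640-128118491 (Itgam) in the RefSeq annotation of the same build. Of the members, 7 had such a window, and the motif was found in 5 of them, Aif1, Cd68, Itgam, Mrc1 and 1 of the 2 windows of Ptprc, but in neither that of Lyz2 nor that of Fcer1g. Of all 32851 windows of this length, 23.3% held it. A match describes these letters and is not a binding site.

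All 10 members were detected in each of the 24 libraries, with between 3 counts (Aif1) and 1175 counts (Lyz2). Library totals ranged from 7211357 to 15548856 counts on genes, and 3 counts corresponded to between 0.193 and 0.416 CPM (counts scaled to the library total), which covers counting error only. Summed over the 10 members, the level was 56.1 to 126 CPM at 6 h and 77.4 to 231 CPM at 24 h. Of 24 markers of T, B and NK cells, granulocytes and mast cells, 4 passed the filter, and their summed level over all 24 was 1.74 to 17.5 CPM. The markers of supporting cells and hair cells were far more abundant, with 3990 to 11100 CPM for 12 supporting cell genes and 538 to 1110 CPM for 15 hair cell genes. Summed over 7 erythroid genes, the level at 24 h was 75.8 to 240 CPM, near that of the members.

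Levels of different genes were compared per gene length (RPKM, CPM per kilobase, from the deposited lengths). Lyz2 had the highest mean over the 24 libraries, 23.7 ± 21.8 RPKM (SD, n = 24), and it was first at both times. Tyrobp (9.62 ± 4.52 RPKM), Cd68 (7.97 ± 2.28 RPKM), Fcer1g (6.15 ± 2.09 RPKM), Csf1r (5.77 ± 3.32 RPKM), Adgre1 (4.38 ± 1.85 RPKM) and Mrc1 (3.33 ± 1.32 RPKM) followed. Aif1 (1.22 ± 0.774 RPKM), Itgam (1.20 ± 0.61 RPKM) and Ptprc (0.8 ± 0.277 RPKM) came last. Apart from the step from Mrc1 to Aif1, neighbours in this order differed by less than the larger of their SDs. At 6 h, Lyz2 (7.8 ± 4.24 RPKM, n = 12) and Tyrobp (7.77 ± 3.43 RPKM) had nearly the same level, whereas at 24 h Lyz2 stood at 39.6 ± 20.7 RPKM and Tyrobp at 11.5 ± 4.85 RPKM.

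**Figure D1:**
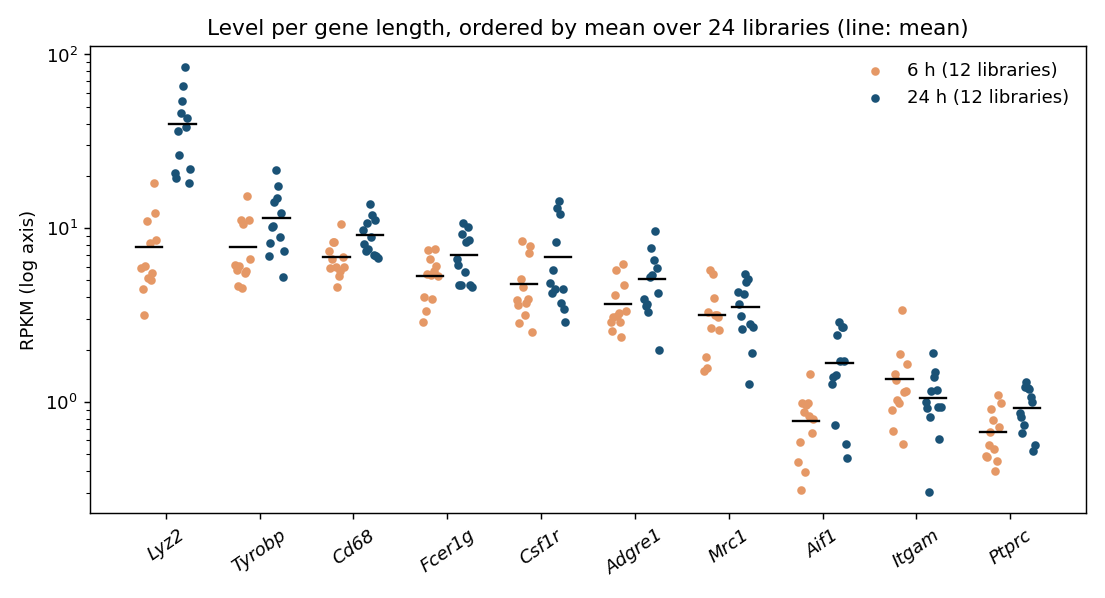
RPKM (log axis) of the 10 members in the 12 libraries at 6 h and the 12 at 24 h, in order of the mean over all 24, with the mean of each time as a line. The 24 h points of Lyz2, 18.1 to 84.5 RPKM, lie almost wholly above its 6 h points, 3.18 to 18.2 RPKM, whereas the other members overlap between the times.

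The first comparison asked whether the length of culture changed the markers, 24 h against 6 h averaged over the 4 treatments. Lyz2, Aif1, Cd68 and Ptprc rose and no member fell. Lyz2 rose 5.07-fold and Aif1 2.07-fold, whereas Cd68 and Ptprc rose 1.34-fold and 1.38-fold. A gene was called at an adjusted p under 0.05. With 4 of 10 members higher, the share was near the background, since 31.9% of all 16317 genes tested rose and 62.6% changed in either direction. The median log2 fold change of the members was 0.45 against 0.02 over all genes tested, and 9 of the 10 values were positive. The median was 0.218 without the libraries numbered 2 and 0.65 without those numbered 3, in fits added after the data were seen.

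Lyz2 was the member that moved most. Its levels at 6 h were 6.24, 11.6 and 5.80 CPM in CTRL, 4.71, 5.49 and 19.2 CPM in GM, 3.37, 8.67 and 13.0 CPM in PIO, and 6.43, 5.31 and 9.01 CPM in PIO+GM, in the order of replicates 1 to 3. At 24 h they were 21.9, 48.8 and 40.6 CPM in CTRL, 20.5, 57.2 and 45.6 CPM in GM, 38.1, 69.9 and 19.2 CPM in PIO, and 27.9, 89.3 and 23.0 CPM in PIO+GM. Within each treatment, all 3 libraries at 24 h were above all 3 at 6 h (as for 24.1% of genes tested in CTRL, 22.7% in GM, 20.5% in PIO and 22.4% in PIO+GM), and the single pair that met across treatments was the third GM library at 6 h and the third PIO library at 24 h. The log2 fold change was 2.34 (SE 0.33, adjusted p = 4.34e-06 by edgeR's quasi-likelihood test), and 22 of 16317 genes (0.135%) rose by as much or more. Within treatments it was 2.21 (SE 0.65, adjusted p = 0.0155) in CTRL, 2.04 (SE 0.64, adjusted p = 0.0248) in GM, 2.34 (SE 0.65, adjusted p = 0.012) in PIO and 2.78 (SE 0.67, adjusted p = 0.0037) in PIO+GM. It was thus past the threshold in each of the 4, as were 1137 genes (6.97%), and it was the only member called in any of them, where 14.8%, 12.5%, 13.2% and 17.6% of all genes were called higher. Lyz2 made up 6.0 to 15.6% of the summed member CPM in the 6 h libraries and 20.4 to 38.7% in the 24 h libraries. Its paralogue Lyz1, which can share reads with it, had 2 to 12 counts at 6 h and 11 to 59 at 24 h against 37 to 289 and 252 to 1175 for Lyz2, and the split of reads between them is uncertain.

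Aif1 was the rarest member by count, with 3 to 19 counts at 6 h and 5 to 38 at 24 h. Its level was 0.273 CPM at the lowest, 0.709 CPM at the median and 1.27 CPM at the highest of the 12 libraries at 6 h, against 0.418, 1.37 and 2.52 CPM at 24 h. The log2 fold change was 1.05 (SE 0.29, adjusted p = 0.00443). In CTRL alone, 0.395, 0.762 and 0.725 CPM at 6 h stood below 1.11, 2.13 and 2.34 CPM at 24 h without overlap (adjusted p = 0.0532), as for 24.1% of genes tested. Beside Lyz2 and Aif1, the groups did not overlap for Cd68 in PIO (20.5% of genes) and for Tyrobp in PIO+GM (22.4% of genes), and neither passed the threshold there (adjusted p = 0.345 and 0.155). Cd68 ranged from 5.75 to 13.1 CPM at 6 h (median 7.88) and from 8.36 to 17.1 CPM at 24 h (median 10.6), which overlapped, and its log2 fold change was 0.42 (SE 0.14, adjusted p = 0.0139). Ptprc ranged from 2.27 to 6.19 CPM (median 3.48) and from 2.94 to 7.35 CPM (median 5.28), with a log2 fold change of 0.46 (SE 0.19, adjusted p = 0.045).

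The other 6 members did not pass the threshold. The log2 fold changes were 0.56 (SE 0.25, adjusted p = 0.0611) for the adaptor Tyrobp, 0.37 (SE 0.17, adjusted p = 0.0708) for the adaptor Fcer1g and 0.44 (SE 0.22, adjusted p = 0.0913) for Adgre1. They were 0.51 (SE 0.30, adjusted p = 0.147) for Csf1r, 0.15 (SE 0.26, adjusted p = 0.637) for Mrc1 and −0.28 (SE 0.23, adjusted p = 0.298) for Itgam. Itgam, the alpha chain of complement receptor 3, thus had the only negative value, with log2 fold changes of 0.40 in CTRL and 0.44 in GM but −0.94 in PIO and −1.0 in PIO+GM, none of them past the threshold.

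**Figure D2:**
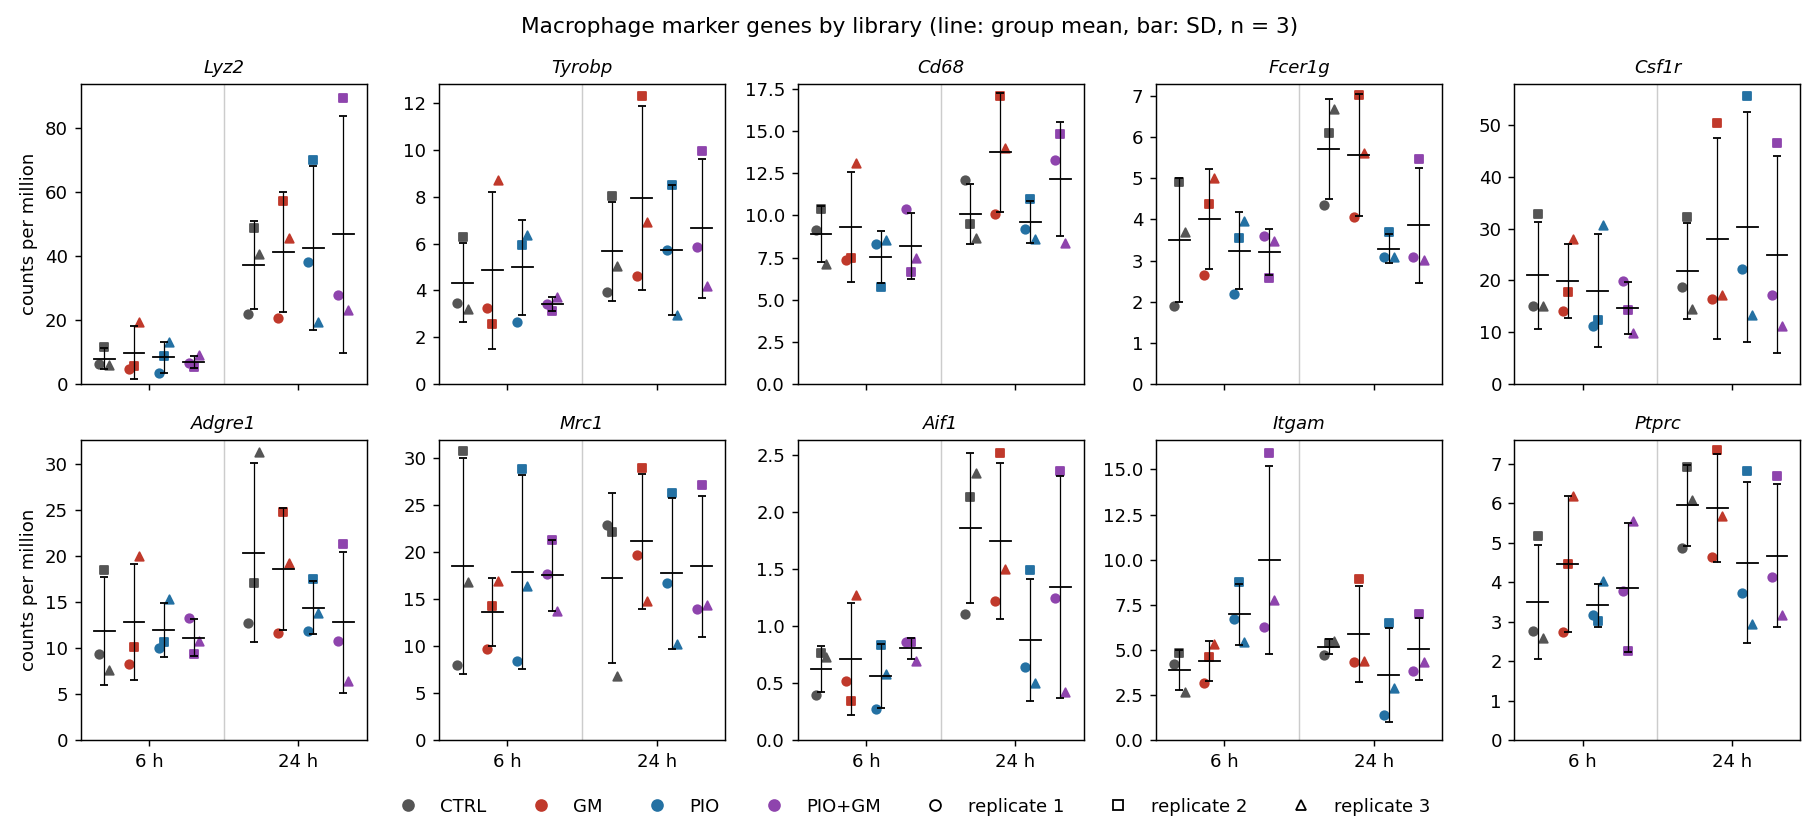
CPM of the 10 members in each of the 24 libraries, with treatments in colour, replicates as symbols, and the mean and SD of each group of 3. At 24 h, replicate 2 is the highest of its group for all 10 members in GM, PIO and PIO+GM, and at 6 h 1 PIO+GM library stands out for Itgam with 15.9 CPM.

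Replicate 2 held the highest level of all 10 members in 3 of the 4 groups at 24 h (GM, PIO and PIO+GM), and of 4 members in CTRL. At 6 h, replicate 2 was highest for all 10 members in CTRL and replicate 3 for all 10 in GM. Without the 8 libraries numbered 2, an alternative chosen after seeing the data, 1 member was past the threshold, Lyz2, with a log2 fold change of 1.83 (SE 0.34, adjusted p = 8.7e-04). Without those numbered 1, Lyz2 (2.35) and Aif1 (1.04) were called, and without those numbered 3, 6 members were. Of all genes, 8147 were called without number 2, 7980 without number 1 and 9667 without number 3, against 10220 with all libraries. When single libraries were left out in turn, Lyz2, Aif1 and Cd68 were past the threshold in all 24 fits and Ptprc in 10 of 24. Of the members not called with all libraries, Tyrobp was past it in 6 of the 24 fits, Fcer1g in 4 and Adgre1 in 3. Cd68 was not past it with the replicate block and a GC trend removed (log2 fold change 0.31, SE 0.14, adjusted p = 0.0545), nor Ptprc with at least 10 counts in every library (0.45, SE 0.20, adjusted p = 0.0524). That block joined equal numbers at 6 h and 24 h, and the labels do not say whether a number means the same at both times.

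Other readouts of the libraries also moved with time. Counts on 1479 olfactory and vomeronasal receptor genes, which serve as a measure of background, were 56.9 to 277.6 CPM at 6 h and 38.7 to 165.4 CPM at 24 h, and with them as a covariate only Lyz2 (log2 fold change 1.89, SE 0.34, adjusted p = 1.34e-04) stayed past the threshold. Against 31.9% of all genes called higher and 62.6% called in either direction, all 6 erythroid genes tested were called lower (182 to 630 CPM summed at 6 h, 75.8 to 240 CPM at 24 h), as were 6 of 12 Schwann cell genes, and 6 of 12 supporting cell genes were called higher. Of 11 fibroblast and mesenchyme genes, 5 were called higher and 2 lower (3430 to 6530 CPM summed at 6 h, 4830 to 9190 CPM at 24 h). The part of these differences in the members' values was not tested.

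The second comparison asked what gentamicin did to the markers. No member passed the threshold for GM against CTRL at 6 h or at 24 h by edgeR or by DESeq2, and 0 of 10 had an unadjusted p under 0.05 at either time (1.49% and 1.67% of all genes did). The background was close to nothing as well, with 0% of 16317 genes called at 6 h and 0.0123% at 24 h, which is 2 genes, both higher. With the replicate number as a block, 12 genes were called at 24 h, none of them a member. Member log2 fold changes ran from −0.48 (Mrc1, SE 0.52) to 0.33 (Ptprc, SE 0.39) at 6 h and from −0.14 (Adgre1, SE 0.44) to 0.48 (Tyrobp, SE 0.50) at 24 h. Csf1r, for example, had 15.0, 32.9 and 15.1 CPM in CTRL and 14.1, 17.8 and 27.9 CPM in GM at 6 h, and 18.8, 32.3 and 14.4 CPM against 16.5, 50.4 and 17.2 CPM at 24 h. The groups overlapped for all 10 members at both times. 

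The third comparison asked what pioglitazone did, alone (PIO against CTRL) and beside gentamicin (PIO+GM against GM). None of the 10 members passed the threshold in any of these 4 comparisons by edgeR or DESeq2, with 0.337% of all genes called at 6 h and 0.153% at 24 h without gentamicin, and 1.32% and 0.11% with it. At an unadjusted p under 0.05, 1 member was counted for PIO against CTRL at 24 h (Fcer1g) and 1 for PIO+GM against GM at 6 h (Itgam), with 15.2%, 9.93%, 25% and 7.47% of all genes at that level for PIO at 6 h and 24 h and for PIO+GM at 6 h and 24 h. With the replicate number as a block, 241 genes were called for PIO against CTRL at 24 h in place of 25, again without a member. For PIO+GM against GM at 6 h, whose numbers did not pair the groups, the block called 1 member, Itgam (1.09, SE 0.33, adjusted p = 0.0422), among 1990 of the 16317 genes.

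Itgam was the member with the largest difference at 6 h. It had 4.19, 4.83 and 2.66 CPM in CTRL, 3.17, 4.63 and 5.33 CPM in GM, 6.73, 8.78 and 5.42 CPM in PIO, and 6.26, 15.9 and 7.77 CPM in PIO+GM. All 3 PIO libraries were above all 3 CTRL libraries (as for 8.68% of genes tested), and all 3 PIO+GM libraries above all 3 GM libraries (11.6%). Averaged over both, 6 libraries with the drug against 6 without, Itgam rose 2.00-fold (log2 fold change 1.00, SE 0.33, adjusted p = 0.0426), and it was the only member of 10 called, where 9.25% of all genes rose and 16.1% changed. The call was lost in 16 of the 24 fits that left out 1 library, among them the one without the second PIO+GM library (log2 fold change 0.72, SE 0.32, adjusted p = 0.161), which alone held 203 counts. It was also lost, with nearly the same log2 fold change, without any filter on low counts (0.978, adjusted p = 0.0618), with a GC trend removed (0.999, adjusted p = 0.0656), and in a fit to the 12 libraries at 6 h alone (0.982, adjusted p = 0.0837). At 24 h, Itgam had 1.41 to 6.49 CPM in PIO and 3.81 to 6.99 CPM in PIO+GM against 4.70 to 5.47 CPM in CTRL and 4.30 to 8.94 CPM in GM, and the averaged log2 fold change was −0.39 (SE 0.32, adjusted p = 0.596). The difference between the 6 h and 24 h effects was −1.39 (SE 0.46, unadjusted p = 0.00663) and did not pass after adjustment (adjusted p = 0.406).

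Fcer1g and Aif1 had the lowest values with pioglitazone at 24 h for PIO against CTRL and for the average, whereas Adgre1 (−0.55, SE 0.44) and Fcer1g had the lowest for PIO+GM against GM. Fcer1g, the adaptor of Fc receptors, had 3.09, 3.70 and 3.09 CPM in PIO, below the 4.36, 6.11 and 6.69 CPM in CTRL without overlap (as for 10.6% of genes tested), and 3.09, 5.47 and 3.01 CPM in PIO+GM beside 4.06, 7.02 and 5.61 CPM in GM. The log2 fold change was −0.81 (SE 0.34, adjusted p = 0.418) for PIO against CTRL, −0.55 (SE 0.34, adjusted p = 0.779) for PIO+GM against GM, and −0.68 (SE 0.24, adjusted p = 0.14) averaged over both, where 2.79% of all genes were called. With the replicate number as a block, which paired CTRL with PIO but not GM with PIO+GM, the averaged value was past the threshold (−0.67, SE 0.19, adjusted p = 0.0379). It was the 1 member with an unadjusted p under 0.05 in that average, as had 16.9% of all genes, and 0 members were called by DESeq2. For Aif1 the averaged value was −0.73 (SE 0.38, adjusted p = 0.343), with 1.11, 2.13 and 2.34 CPM in CTRL and 0.643, 1.49 and 0.502 CPM in PIO. Of the 10 averaged values at 24 h, 8 were negative, with a median of −0.26 against a median near 0 over all genes tested, and 2, those of Lyz2 (0.18, SE 0.43) and Csf1r (0.14, SE 0.42), were positive. Leaving out 1 library moved this median from −0.466 (without the second PIO library) to −0.097 (without the second GM library). At 6 h, 8 of 10 were negative, with a median of −0.17 against −0.02, but the median was positive without the third GM library (0.169) or the second CTRL library (0.027). Neither pioglitazone by gentamicin at 6 h or 24 h nor gentamicin by time gave a member past the threshold when the difference itself was tested (0% of all genes in each, and 0 members at an unadjusted p under 0.05 against 1.8%, 1.21% and 0.766% of all genes), by edgeR or DESeq2. For pioglitazone by time 0.00613% of all genes were called, 10.1% had an unadjusted p under 0.05, and Itgam was the 1 member that did.

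**Figure D3:**
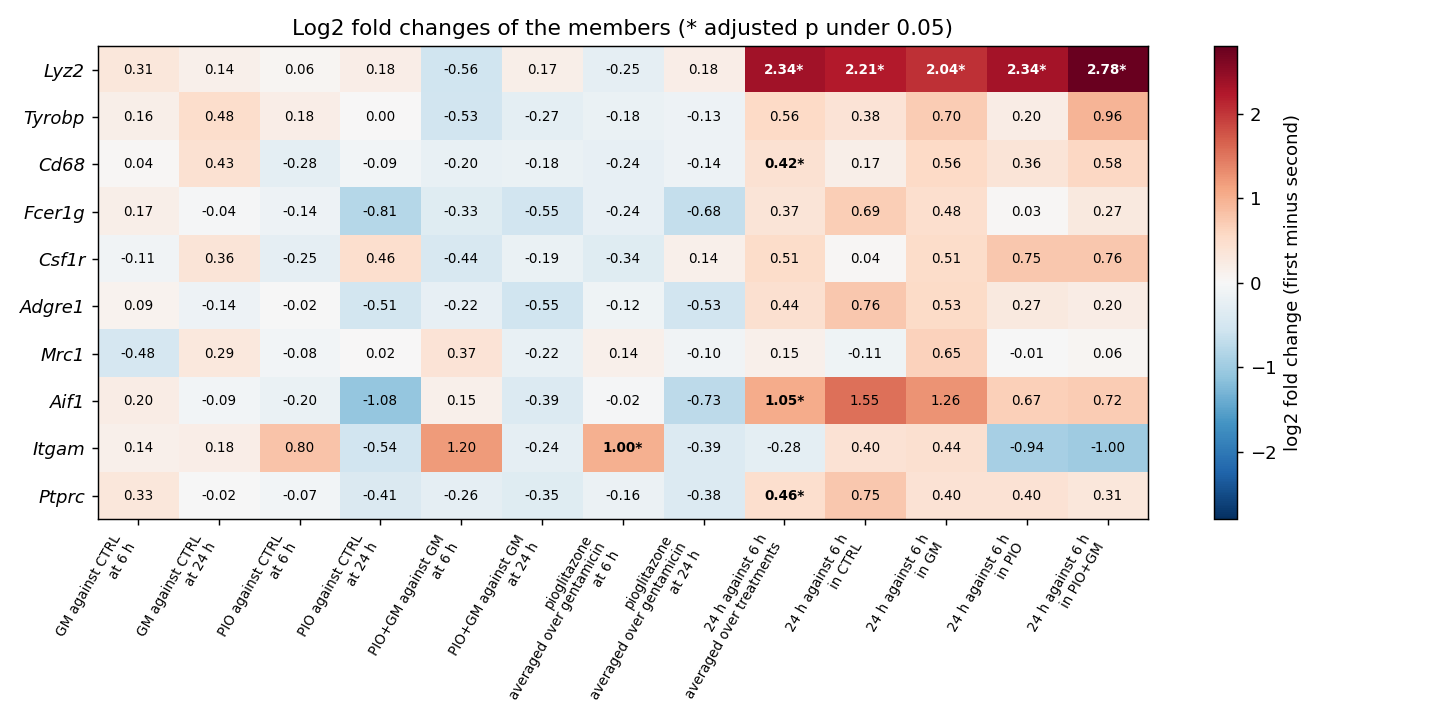
Log2 fold changes (first group minus second) of the 10 members in 6 drug comparisons, their averages and 24 h against 6 h, with an asterisk where the adjusted p was under 0.05. The drug columns carry a single asterisk, for Itgam with pioglitazone averaged at 6 h, whereas Lyz2 carries one in all 5 time columns. Comparisons that share a control group are not independent of each other.

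The members varied together between libraries of one group. Pearson's r of their deviations from the group means of log2 CPM, over 24 libraries that differed in depth, had a median of 0.66 over the 45 pairs, from 0.26 to 0.95. Differences in depth or dissection between libraries can move members together, and their part was not tested. The highest were Lyz2 with Tyrobp (0.95), Aif1 with Tyrobp (0.86), and Aif1 with Lyz2 and Lyz2 with Ptprc (0.83 each). Itgam had the lowest median with the other 9, 0.44 (0.27 to 0.52), and Mrc1 came next with 0.52. Lyz2 had the highest median, 0.79.

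**Figure D4:**
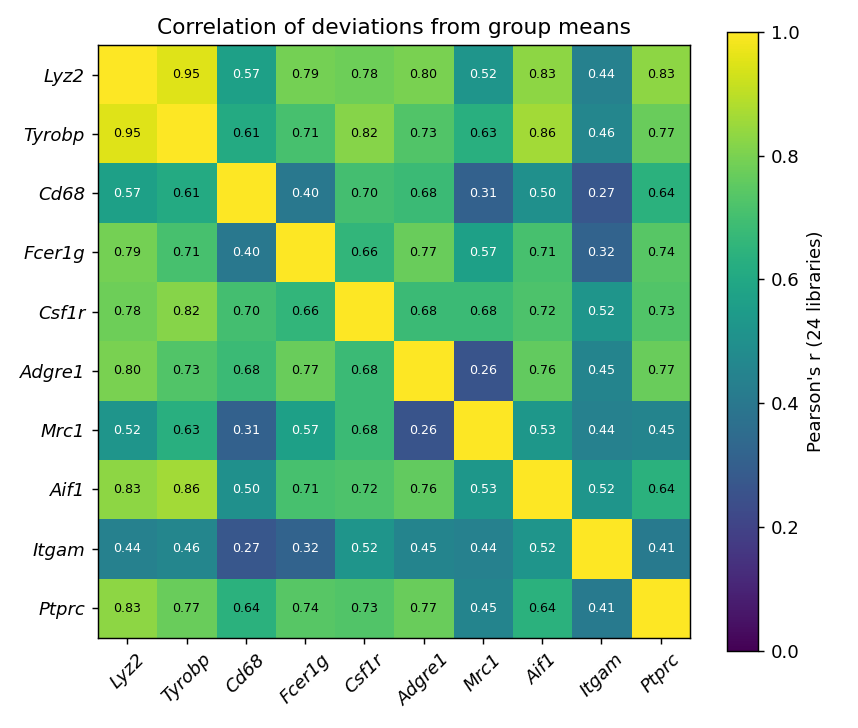
Pearson's r between members of the deviations of log2 CPM from the group means over 24 libraries. The cell of Lyz2 and Tyrobp is the brightest, with 0.95, and no cell of Itgam exceeds 0.52.

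Other genes of the same pathway were taken from lists chosen with earlier results known. Both CSF1R ligands fell from 6 h to 24 h, where 62.6% of all genes changed, while the receptor itself had a log2 fold change of 0.51 that did not pass. Csf1 went from a mean of 68.6 to 29.0 CPM (log2 fold change −1.22, SE 0.23, adjusted p = 1.55e-04) and Il34 from 6.29 to 2.31 CPM (−1.39, SE 0.30, adjusted p = 4.4e-04). Il34 also fell with pioglitazone averaged at 6 h, from 9.08 to 3.50 CPM (−1.39, SE 0.40, adjusted p = 0.0271), where 16.1% of all genes changed, a call that was lost in 6 of the 24 fits that left out 1 library, in the 12 libraries at 6 h alone and with the receptor covariate. The call was also lost without the libraries numbered 2 (−0.87, adjusted p = 0.352) or 3 (−1.428, adjusted p = 0.0803), but not without those numbered 1 (−1.989, adjusted p = 0.0455). At 24 h, Il34 went from 3.11 to 1.5 CPM with the drug (−1.05, SE 0.43, adjusted p = 0.206).

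Of 18 receptors and kinases that pair with Tyrobp, Fcer1g or Itgam, 13 were tested, and from 6 h to 24 h 2 rose and 6 fell, where 31.9% of all genes rose and 62.6% changed. Trem2, a lipid receptor that signals through Tyrobp, rose 2.02-fold (log2 fold change 1.02, SE 0.18, adjusted p = 6.12e-05), with 1.76 CPM on average at 6 h and 3.56 at 24 h. The Fc receptor Fcgr3, named after its values were seen, rose 2.04-fold. Among those that fell, also named afterwards, were the C-type lectins Clec4e (log2 fold change −2.15) and Clec4n (−1.63), which signal through Fcer1g, and Cd300lb (−1.69). Mean levels of Clec4e were 0.608 CPM at 6 h and 0.193 CPM at 24 h, near the 0.193 to 0.416 CPM of 3 counts. Clec4n went from 2.41 to 0.773 CPM and Cd300lb from 3.19 to 0.917 CPM, and all of these overlapped between the times. Itgb2, the partner of Itgam (−0.14, SE 0.26, adjusted p = 0.659), and Syk (0.33, SE 0.21, adjusted p = 0.182) did not pass, nor did Spi1, which encodes PU.1 (−0.29, SE 0.29, adjusted p = 0.395). Spi1 was past the threshold without the libraries numbered 2 (−0.712, adjusted p = 0.0124), and Syk without those numbered 3 (0.655, adjusted p = 0.0143). Itgb2 did not follow Itgam at 6 h with pioglitazone, as its averaged log2 fold change was −1.06 (SE 0.37, adjusted p = 0.0587).

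Of 50 other macrophage genes, 49 were tested, and 28 rose and 6 fell from 6 h to 24 h (31.9% of all genes rose and 62.6% changed), with a median log2 fold change of 0.61 against 0.02 over all genes tested. Rises without overlap between the times, a property of 5.99% of genes tested, included those of Unc93b1, a chaperone of nucleic acid-sensing Toll-like receptors (1.52, SE 0.21, adjusted p = 3.42e-06), and Csf2ra, a GM-CSF receptor chain (1.23, SE 0.17, adjusted p = 3.77e-06). The complement genes C1qa (1.65), C1qb (1.01) and C1qc (1.40) and the chemokine receptor gene Cx3cr1 (1.48), named after their values were seen, rose as well. Lilrb4a, an inhibitory receptor, fell without overlap, as did 6.37% of genes (−1.69, SE 0.20, adjusted p = 5.63e-07), and the dendritic and activation markers Itgax (−1.72) and Cd86 (−1.64) fell with overlap. Itgax went from 2.29 to 0.745 CPM on average and Cd86 from 2.7 to 0.862 CPM. The shares of the next lists that changed were below the 62.6% of all genes. Of 9 macrophage transcription factors, 2 rose (Maf, 0.93, and Cebpa) and 2 fell (Cebpb, −0.98, and Runx1, −0.86). Of 13 tested genes of resident or alternatively activated macrophages, 3 rose and 4 fell, among them F13a1 (1.42) and the scavenger receptor gene Cd163 (−1.59). Cd163 was near the level of 3 counts at 24 h, with a mean of 0.394 CPM against 1.21 CPM at 6 h.

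**Figure D5:**
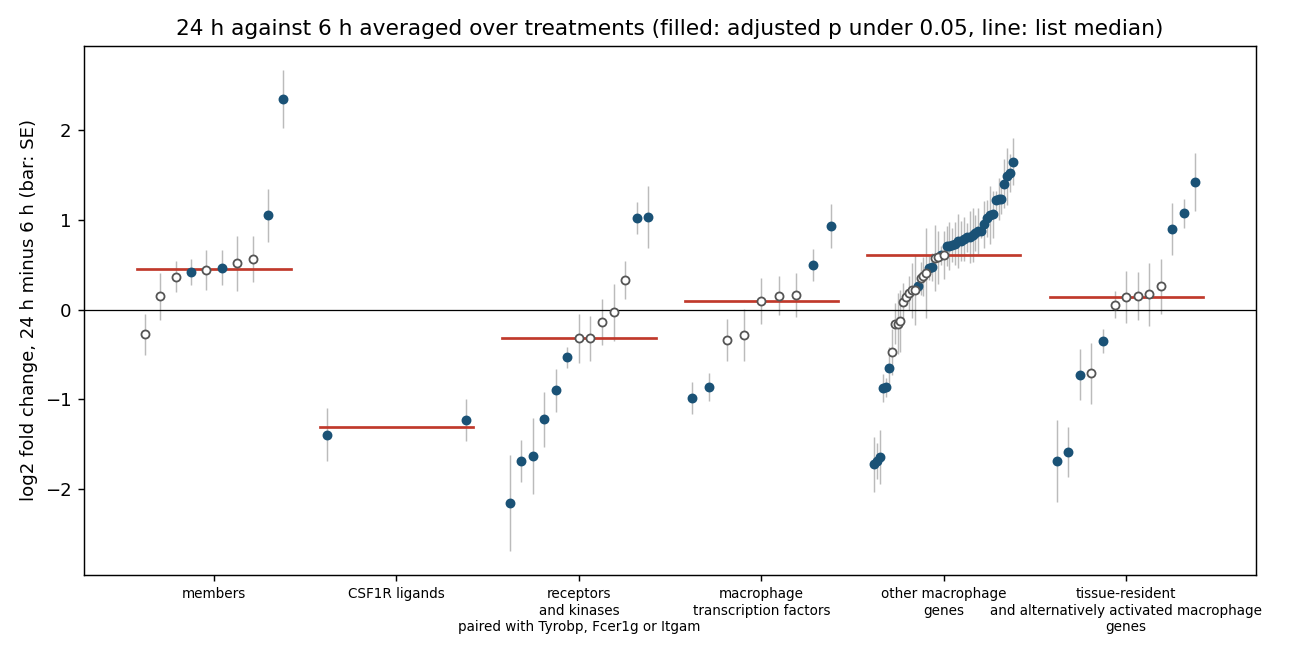
Log2 fold change with SE for 24 h against 6 h, for the members and 5 other lists of macrophage genes, with filled points where the adjusted p was under 0.05 and the list median as a line. Medians are 0.45 for the members and 0.61 for the other macrophage genes, and −0.32 for the paired receptors and kinases, which hold both rises and falls.

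With pioglitazone averaged over gentamicin at 6 h, where 16.1% of all genes were called, 1 of the 49 other macrophage genes rose (Itgax, 1.49, SE 0.39, adjusted p = 0.0164) and 2 fell, Lcp1 (−0.95) and Arhgdib (−0.77), and Cd300lb (−1.25), Runx1 (−0.81) and Tmem119 (−0.69, adjusted p = 0.0484) fell in their lists. At 24 h, none of the 49 was called by edgeR (4 had an unadjusted p under 0.05), where 2.79% of all genes were called and 16.9% had such a p, and of 13 resident and alternatively activated genes 2 fell. Tmem119, a marker of microglia that mesenchymal cells also express, went from 33.3 to 14.7 CPM without overlap, as did 2.98% of genes (log2 fold change −1.20, SE 0.22, adjusted p = 0.00632), a call lost, at a similar log2 fold change, without the libraries numbered 1 (−1.249, adjusted p = 0.255) or 3 (−1.09, adjusted p = 0.126) but not without those numbered 2 (−1.265, adjusted p = 0.0118), and the folate receptor gene Folr2 from 1.06 to 0.343 CPM (−1.57, adjusted p = 0.0309). Of 11 fibroblast genes, 4 (Col3a1, Dcn, Pdgfra and Postn) fell in the same comparison, and their part in the value of Tmem119 was not tested. Of 8 monocyte genes, 4 were tested, and Fn1 (fibronectin) rose with time (0.32, adjusted p = 0.00423) and fell with pioglitazone at 6 h (−0.43, adjusted p = 0.0287), while Vcan (versican) fell with it at 24 h (−0.98, adjusted p = 0.0232). Mesenchymal cells make both of these matrix proteins too.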

How the data were processed

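RNA was measured in 24 libraries of mouse OC explants, 3 for each of 4 treatments at 2 culture times. The authors mapped stranded single reads with RNA-STAR to the mouse genome (mm10 in the submitters' processing notes) and counted, with QuasR, the reads starting in any RefSeq exon of a gene. The deposited counts are whole numbers, neither normalized nor filtered, beside a gene length in base pairs. Use of the strand in counting is not given in the sources used here. Of 24454 Entrez identifiers, 24374 matched a RefSeq symbol.

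Counts were fitted in R 4.3.3 with edgeR 4.0.16 (TMM factors, filterByExpr, quasi-likelihood test) as 8 group means over all 24 libraries, with Benjamini-Hochberg adjustment over the 16317 genes tested and a threshold of 0.05. The common biological coefficient of variation was 0.225. DESeq2 1.42.0 was an alternative. CPM used library totals (7211357 to 15548856), log2 CPM a prior count of 2, and RPKM the deposited lengths. SEs were derived from the F statistic. Beside the members, the naming rule took Csf1, Il34, Itgb2, Trem2, Syk and Spi1, and up to 3 list genes per direction past the threshold whose groups did not overlap. Other macrophage list genes in the text, such as Itgax, Cd86, Maf and Cd163, fall outside this rule. They were named from the genes past the threshold, and their groups overlapped. Replicate numbers were taken to pair 2 groups where every same-number correlation of deviations was over 0.1. This held for CTRL with GM and with PIO at 24 h (0.43 to 0.72, and 0.11 to 0.56), but not for the other groups compared. The cut separates similar values, since GM with PIO+GM at 24 h had a mean of 0.35 (0.03 to 0.63) and CTRL with PIO 0.3. The members and lists were chosen with earlier results of these data known. Fits that leave out all libraries of 1 replicate number, and 24 h against 6 h within each treatment, were added after seeing the data. Some genes that the naming rule picks are not reported here. The procedure was tested on simulated data, in which few genes changed, all genes had the same dispersion and replicates had no shared shift. Figures were drawn with matplotlib 3.10.9.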

Additional observations from a re-analysis of the deposited data

How the results depend on the processing

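Counts of members called were 0 of 10 under every alternative for GM against CTRL and for PIO against CTRL, at 6 h and 24 h. For 24 h against 6 h, 4 members were called, 2 with at least 10 counts in every library (where Aif1 was not tested), 1 with the receptor covariate, and 1 to 7 when libraries were left out. For pioglitazone averaged at 6 h, 1 member was called, and 0 with no filter, with the GC trend removed or in the 12 libraries of the time point. With the replicate block, 1 member was called for PIO+GM against GM at 6 h (Itgam) and 1 for pioglitazone averaged at 24 h (Fcer1g, also with the GC trend removed), and Fcer1g was called for 24 h against 6 h (0.37, adjusted p = 0.0262). For the comparison of times, the block joined equal numbers at 6 h and 24 h, and pairing across the times was not tested. Leaving out libraries gave 0 to 1 members for PIO+GM against GM at 6 h and for pioglitazone averaged at 6 h. Csf1r (−0.141), Mrc1 (−0.098) and Syk (−0.008) changed sign with the receptor covariate for 24 h against 6 h, and on leaving out libraries Csf1r ran from −0.123 to 0.95, Mrc1 from −0.082 to 0.38, Itgb2 from −0.55 to 0.22 and Syk from −0.047 to 0.66.

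Counts of all genes called moved more. In the order GM against CTRL at 24 h (2), PIO against CTRL at 6 h (55) and 24 h (25), and PIO+GM against GM at 6 h (216) and 24 h (18), DESeq2 called 15, 383, 162, 1320 and 102, the replicate block 12, 371, 241, 1990 and 98, and the block with the GC trend removed 16, 714, 489, 558 and 174. The 12 libraries of the time point gave 6, 0, 76, 0 and 40. The GC trend removed gave 135, 62, 61 and 33 for the last 4. No filter gave 22, 16 and 75 for PIO at 6 h and 24 h and PIO+GM at 6 h. At least 10 counts in every library gave 0, 95 and 350 for GM at 24 h, PIO at 6 h and PIO+GM at 6 h, and the receptor covariate 30 for PIO+GM at 6 h. For pioglitazone averaged at 6 h (2625), the block gave 4403, the GC trend 1521, the 12 libraries 143 and the receptor covariate 1365. Averaged at 24 h (456), no filter gave 279, DESeq2 970, the block 1191, the GC trend 862, block with GC 1953 and the 12 libraries 1373. The pioglitazone by time interaction (1) gave 46 by DESeq2, 37 with the block, 10 with GC removed and 33 with both. Leaving out libraries gave 0 to 5, 0 to 257, 0 to 51, 0 to 4053 and 0 to 26 for the 5 comparisons in turn, 184 to 5086 and 10 to 661 for the averages, and 0 to 22 for the interaction. The causes were not tested. Of the named genes' fold changes under the alternatives that kept all libraries, 246 kept direction and side of the threshold, 11 lost and 5 gained the call, and 3 changed sign. Among the members, depth limits Aif1 most, at 3 to 38 counts a library.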

Other observations

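Among the genes whose deviations from the group means were most like the mean z-score of the 10 members, over 24 libraries and among 14958 other genes with a mean of at least 1 CPM, were Myof (r = 0.944), Enpep (0.938), Dnah11 (0.935), Ms4a7 (0.928), Slc40a1 (0.928), Bmp5 (0.926), Bmp3 (0.925), C1qc (0.925) and Cytl1 (0.925). The median over the ranked genes was −0.01 and the 99th percentile 0.82. Ms4a7 and C1qc are macrophage genes and Slc40a1 encodes the iron exporter ferroportin, whereas Bmp5 and Bmp3 encode secreted growth factors and Enpep an aminopeptidase. By levels over the 24 libraries, the order began with Ctss (0.938), which encodes the lysosomal protease cathepsin S, Car12 (0.912) and Lcp2 (0.909), an adaptor of leukocyte receptors.

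The genes beside Itgam on chromosome 7 were looked at after the values of Itgam had been seen. Among the tested genes within 100000 bases of it, Trim72, upstream, and Itgax, downstream, were called higher with pioglitazone averaged at 6 h, as was Itgam (log2 fold changes of 1.42, 1.49 and 1.00). Trim72, whose product serves in membrane repair of muscle, had 24, 26 and 16 counts in CTRL, 21, 26 and 30 in GM, 80, 60 and 54 in PIO and 55, 85 and 15 in PIO+GM at 6 h. Itgax, which encodes CD11c, had 17, 25 and 8 counts in CTRL, 13, 14 and 10 in GM, 45, 31 and 14 in PIO and 38, 64 and 27 in PIO+GM. Itgad had a value of 1.65 (SE 0.58, adjusted p = 0.0585). Pycard, upstream of Trim72, had a value of −0.12 (SE 0.29, adjusted p = 0.809). At 24 h, none of Trim72 (0.34), Itgax (0.04) and Itgad (0.90) was called by edgeR.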
